A study of Rattus norvegicus with 24 samples.

Results

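The caspases are cysteine proteases that cut proteins after aspartate residues. A set of 6 genes of the family, Casp1, Casp2, Casp6, Casp8, Casp9 and Casp12, were described in rat cortex after surgery on a middle cerebral artery. The members were the probes of the deposited value table whose platform gene symbol is one of these names, which gave 6 probes, 1 for each of 6 genes, among 22523 probes and 13337 named genes. The rule for members uses symbols and no measured value, but this gene family was chosen for description with earlier results of these data known.

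Male Wistar rats of 250 to 300 g were anaesthetised with ketamine and xylazine in all groups, and their age is not given in the labels. Sham animals were operated on without occlusion, vehicle animals had the artery permanently occluded, as in an ischemic stroke, and received 80% dimethyl sulfoxide into the cerebral ventricle, and treatment animals had the occlusion and received 30 mM ZM447439, an Aurora kinase inhibitor, in 80% dimethyl sulfoxide. RNA from the cortex was collected at 8 h and 24 h and measured on 24 Illumina RatRef-12 arrays, 4 arrays in each of 6 groups. The design text gives no injection for sham animals, and the labels put the occlusion on the left and the tissue on the right side, a conflict that is not settled here. The deposited columns of one time point carried a single probe profile multiplied by 1 factor per array. No caspase could therefore be compared between sham, vehicle and treatment, and the results below concern the 8 h profile and the 24 h profile, each scaled to its median, with no replicate error and no p-value. The arrays behind each profile are not known, so the effects of injury, inhibitor and sham surgery cannot be told apart.

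Caspases are made as inactive precursors and fall into roles. Initiators such as caspase-8 and caspase-9 are activated on adaptor platforms, the first below death receptors and the second on the apoptosome that forms when cytochrome c leaves mitochondria, and they cut executioners, which take the cell apart. Inflammatory caspases are a separate branch: caspase-1 is activated on inflammasomes through the adaptor ASC and matures interleukin-1 beta and interleukin-18, and in brain it is best known from microglia and infiltrating myeloid cells. In ischemic brain both branches are studied, the first in dying neurons and the second in the inflammatory response.

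The 6 genes lie on 5 rat chromosomes, and only Casp1 and Casp12 lie near each other. In the RefSeq gene order of assembly GRCr8, Casp1, Casp4 and Casp12 are consecutive protein-coding genes on chromosome 8. Casp8 on chromosome 9 is next to Cflar, which encodes the caspase-8 inhibitor c-FLIP. Casp1 and Casp12 lie near each other, with Casp4 between them, and had different values in these data, though the Casp12 probe stood close to the array median. Casp9 is the member on the opposite side of no difference from Casp1. The sequences upstream of Casp1, Casp12 and Casp9 are therefore shown. Each is the 250 bases before the RefSeq start, gene strand (plus in all cases), build GRCr8, with capitals marking any match to the interferon-response element core GAAANNGAAA on either strand.
Casp1 chr8:10872580-10872829: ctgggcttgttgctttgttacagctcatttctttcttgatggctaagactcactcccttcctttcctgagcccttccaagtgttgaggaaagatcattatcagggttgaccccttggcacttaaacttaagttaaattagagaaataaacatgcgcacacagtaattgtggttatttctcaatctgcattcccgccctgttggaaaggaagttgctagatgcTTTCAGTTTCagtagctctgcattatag
Casp12 chr8:10926938-10927187: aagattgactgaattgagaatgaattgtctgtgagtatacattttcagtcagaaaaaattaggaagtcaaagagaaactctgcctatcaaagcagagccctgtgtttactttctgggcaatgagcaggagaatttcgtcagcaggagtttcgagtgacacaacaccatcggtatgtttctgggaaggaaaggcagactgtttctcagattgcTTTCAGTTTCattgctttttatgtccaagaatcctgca
Casp9 chr5:159391824-159392073: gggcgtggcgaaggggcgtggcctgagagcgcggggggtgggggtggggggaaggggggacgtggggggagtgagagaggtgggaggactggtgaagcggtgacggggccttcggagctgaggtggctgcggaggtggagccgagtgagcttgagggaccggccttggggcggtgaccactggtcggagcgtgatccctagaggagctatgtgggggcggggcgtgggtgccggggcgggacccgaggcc

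The capitals in the Casp1 window lie at -28 to -19 from the start, and those in the Casp12 window at -38 to -29. Both matches are on the strand opposite to the gene and read GAAACTGAAA there. They sit inside a run of 14 bases, TGCTTTCAGTTTCA, that both windows hold on the gene strand. That run was picked as the longest that both windows share, so its presence in both was fixed in advance. Among 33469 windows of the same length it occurs in 3, those of Casp1, Casp12 and a long noncoding RNA gene. The latter gene lies on the other strand, and its window shares 176 bases with that of Casp12. The count describes the picked run and is not a test. The core GAAANNGAAA itself occurs in 3.41% of all windows, and in those of Casp2, Casp6 and Casp9 it was not found. The ETS core GGAAGT (either strand, no overlap with the first motif in these windows) was found in Casp1 at -44 to -39 and in Casp12 at -189 to -184, against 19.2% of all windows, and the AP-1 core TGANTCA (either strand) in none of the 5 members matched, against 6.34%. Windows of Casp1 and Casp12 were also poorer in G and C, at 42% and 40.4%. Those of Casp6, Casp2 and Casp9 had 60.8%, 66.8% and 73.2%, and the median of all windows was 51.2%. These matches describe letters in a window and do not show a binding site. Of the 6 members 5 were matched, all but Casp8.

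Casp1, which encodes the inflammatory protease that matures interleukin-1 beta, had the largest difference of the 6 genes. Its probe stood at 2.21 times the array median in the 8 h profile and at 3.52 times in the 24 h profile, a 1.59-fold difference (log2 0.67). Of all 22523 probes, 100 had a larger positive difference. Casp1 was the member past 1.5-fold, 1 of 6, against a background of 0.617% of all probes past that size upwards and 0.497% downwards. Among the 8080 probes with a mean level of at least 1.5 times the median, which Casp1, Casp2 and Casp9 belong to, these shares were 1.56% and 1.32%. The size of 1.5-fold is a description and not a test.

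Casp9, the initiator caspase of the apoptosome, was the member lower at 24 h. Its level went from 4.49 to 3.74 times the median, a log2 difference of -0.27. This is a modest place in the table, since 9.58% of probes differed by as much in either direction. The differences of Casp1 and Casp9 lay 0.94 log2 apart, so the ratio of the probes changed 1.91-fold between the profiles.

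Casp2, an initiator with a caspase recruitment domain and the most conserved member of the family, stood at 6.59 and 6.76 times the median (log2 difference 0.04). Casp8, the initiator below death receptors, stood at 0.921 and 0.944 times the median (0.04). Casp6, an executioner that cuts nuclear lamins, stood at 0.991 and 1.05 times (0.09). Casp12, which in rodents belongs to the inflammatory subfamily and is found at the endoplasmic reticulum, stood at 0.955 and 0.984 times (0.04). These differences are small against the SD of 0.17 over all probes, and 42.3% of probes differed by at least as much as Casp6.

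**Figure D1:**
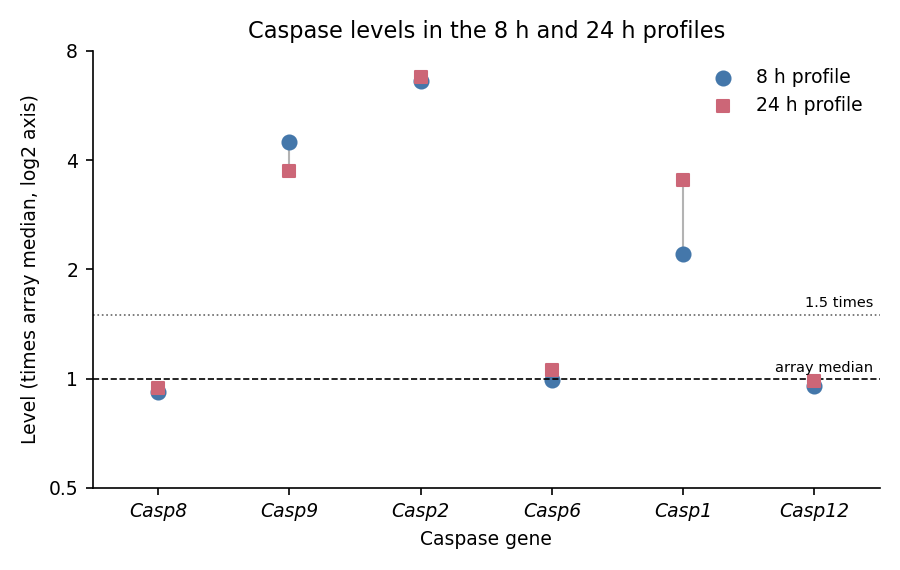
Level of each caspase probe in the 8 h profile (circles) and the 24 h profile (squares), in multiples of the array median on a log2 axis, with lines at the median and at 1.5 times the median. Casp1 stands at 2.21 and 3.52 times the median and Casp9 at 4.49 and 3.74, while the symbols of the other 4 genes nearly coincide; levels of different probes are not transcript amounts and are not ranked.

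Casp6, Casp8 and Casp12 stood close to the array median, and their values carry less information than the others. The lowest level of any probe was 0.624 at 8 h and the 25th percentile 0.812, so levels near 1 lie not far above the floor of the table. The probe of Casp14, a caspase of cornifying skin, stood at 0.732 and 0.712. No detection call was used, and whether these 3 transcripts were measured above background was not tested. In the 14443 probes with a mean level under 1.5 times the median, 0.09% passed 1.5-fold upwards and 0.0346% downwards, so a dim probe seldom passed that size in this table.

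By direction alone, 5 of 6 members were higher at 24 h and 1 lower, with a median difference of 0.04. Over all probes the median difference was -0.0079 and 46.9% were higher, and of those with a mean level of at least 1.5 times the median 35.5% were. The directions of the 6 genes were the same under quantile normalization, cyclic loess, 75th percentile scaling, subtraction of the 1st percentile and normexp with quantile normalization. Under these settings the Casp1 difference ran from 0.73 to 0.92 and that of Casp9 from -0.30 to -0.17. The small differences moved by more in proportion, to 0.06 to 0.13 for Casp2, 0.09 to 0.28 for Casp6, 0.03 to 0.14 for Casp8 and 0.04 to 0.15 for Casp12, and none of these reached 1.5-fold. The split of all probes past 1.5-fold depended on the scaling, with 139 higher and 112 lower as reported, 174 and 87 with quantile scaling, 195 and 78 with cyclic loess, 184 and 88 with the 75th percentile, and 326 and 169 with normexp. Subtraction of the 1st percentile gave 852 and 771.

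**Figure D2:**
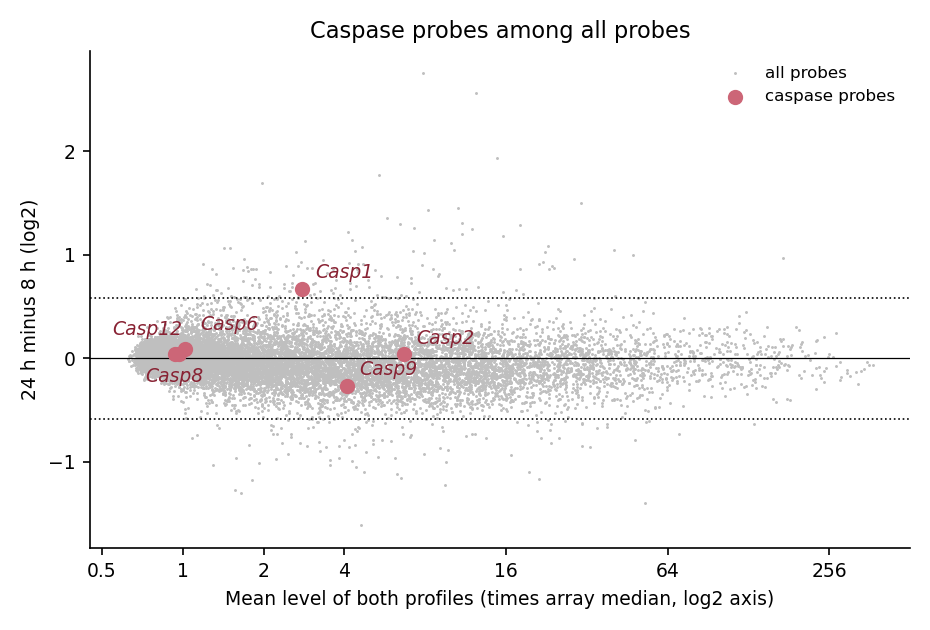
Log2 difference of the 24 h and 8 h profiles against the mean level of both profiles (multiples of the array median, log2 axis) for all 22523 probes in grey and the 6 caspase probes in red, with dotted lines at 1.5-fold. Casp1 (0.67) lies above the upper line, Casp9 (-0.27) below 0, and Casp6, Casp8 and Casp12 lie in the dense cloud of probes near the median.

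On single arrays the deposited intensities, before scaling, followed the array factor within each time point. On the 8 h arrays the Casp1 probe read 185, 172, 186 and 165 in sham, 199, 191, 175 and 169.7 in vehicle, and 177, 199, 150.5 and 144 in treatment, in the order of the replicate numbers. On the 24 h arrays it read 270.3, 319, 288 and 273 in sham, 397, 404, 308 and 291 in vehicle, and 311, 355, 312 and 305 in treatment. For Casp1 every 24 h array lay above every 8 h array. Casp1 was 1 of 6 members with this separation, and 4.52% of all probes had it, with 0.186% separated the other way. At each time the sham, vehicle and treatment arrays overlapped for Casp1. The Casp9 probe ran from 293 through a median of 358 to 405 at 8 h and from 287 through 329 to 429.6 at 24 h, so its time points overlapped before scaling.

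The spread among arrays of a time point was the array factor and not a property of a caspase. The ratio of the Casp9 to the Casp1 probe was 2.03 on the lowest and the highest of the 12 arrays at 8 h, and 1.06 on both at 24 h. After scaling, the largest departure of a caspase probe from its time point's profile was 1.93e-07 log2 at 8 h and 1.99e-07 at 24 h. Array medians ran from 65.3 to 90.1 at 8 h and from 76.8 to 115 at 24 h. Each group had 2 arrays on each of 2 slides, and since the scaled columns of a time point are the same, neither slide nor replicate can alter a difference. Whether arrays are separate animals is not stated in the labels.

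**Figure D3:**
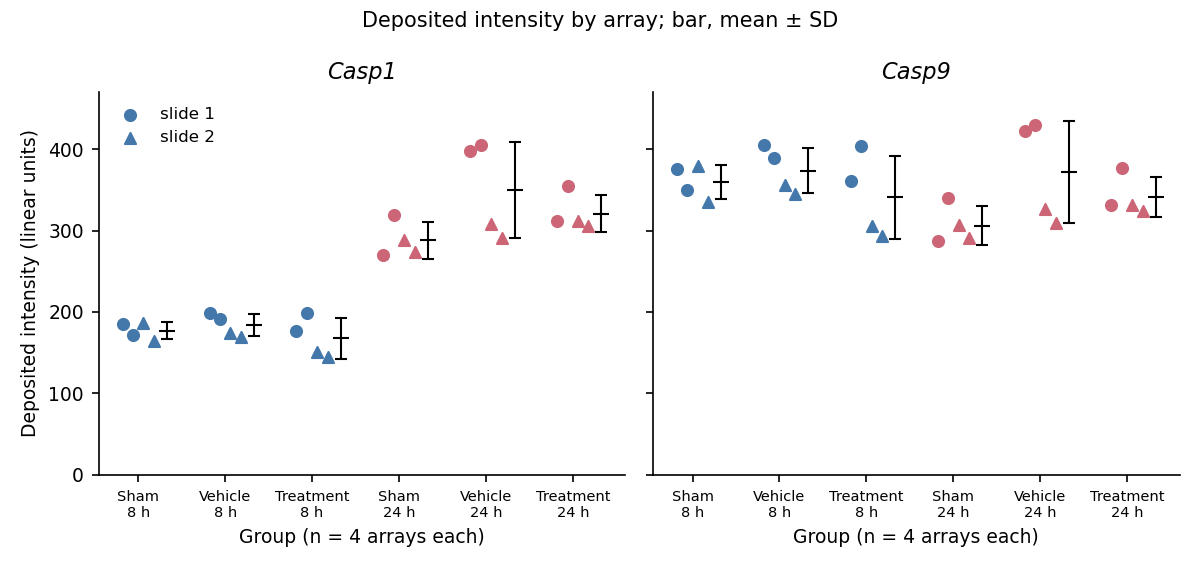
Deposited intensity of the Casp1 and Casp9 probes on each array (linear axis from 0), by group, with circles for slide 1 and triangles for slide 2 and bars for the mean ± SD of 4 arrays. For Casp1 the 24 h arrays (270.3 to 404) lie above the 8 h arrays (144 to 199), for Casp9 they overlap, and within a time point both panels show the same pattern because the arrays differ by 1 factor.

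Casp4 and Casp14 were also measured. Casp4, the neighbour between Casp1 and Casp12 whose counterpart in human and mouse senses intracellular lipopolysaccharide, stood at 1.51 and 1.91 times the median (log2 difference 0.34, and 0.36 to 0.59 under the other scalings). Casp1 and its neighbour Casp4 were thus both higher at 24 h. The Casp12 probe, on the other side of Casp4, was higher by 0.04. It stood near the median in both profiles, where a dim probe seldom passed 1.5-fold, so its small difference is little informative.

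Genes that act around the caspases were described from 9 lists, on which 86 of 107 genes had a named probe. Of these, 40 were higher and 46 lower at 24 h, 1 passed 1.5-fold upwards and 0 downwards, with a median difference of -0.006. Over all 13337 genes 45.1% were higher, 0.907% passed 1.5-fold upwards and 0.682% downwards, and the median was -0.014. The shares of the 9 lists together lay near those of all genes. Under the other scalings this median lay between -0.023 (1st percentile subtracted) and 0.049 (75th percentile) and was positive in 4 of 5. The median of all probes moved as well, to -0.10 and 0.047 under those settings. When the 1st percentile was subtracted, 10 genes passed 1.5-fold in either direction. In that setting 3.78% of all probes passed it upwards and 3.42% downwards.

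The gene past 1.5-fold was Pycard, which encodes ASC, the adaptor that brings pro-caspase-1 to inflammasome sensors. It stood at 1.33 and 2.41 times the median, a log2 difference of 0.86. The other 11 measured inflammasome components lay between -0.12 and 0.37, and the whole list of 12 had 6 higher and 6 lower with a median of 0.03. The sensor gene Nlrp3 stood at 0.901 and 0.961 times the median, close to the floor of the table. Card9, a myeloid adaptor, stood at 1.83 and 2.36 times (0.37).

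The interleukin-1 and interleukin-18 system and gasdermin, only parts of which lie downstream of caspase-1, formed 1 list. It was higher in 9 and lower in 7 of 16 measured genes, with a median of 0.04. Its brightest probes were those of Irak1, a receptor-proximal kinase (-0.11), and Il33, an alarmin (-0.03, positive under 4 of the 5 other scalings, and 0.04 at a second, dimmer probe). The caspase-1 substrates Il1b and Il18 stood at 2.02 and 2.61 times the median (0.37) and at 2.01 and 2.48 times (0.30). Gsdmd, which encodes the pore-forming substrate of caspase-1, stood at 1.16 and 1.27 times. Il1b, Il18, Gsdmd, Nlrp3 and Card9 were picked after their values were seen.

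On the apoptotic side, adaptors of the apoptosome and the death receptors were higher in 6 and lower in 6 of 12 genes, with a median of -0.0029, whose sign changed under 4 of the 5 other scalings. Cycs, the cytochrome c that forms the apoptosome with Apaf-1, differed by -0.09, and Dap3 by 0.12. Apaf1, the scaffold that activates caspase-9, stood at 1.43 and 1.51 times the median and Fadd, the adaptor of caspase-8, at 1.16 and 1.23 times, both also picked after their values were seen. Death ligands and receptors were higher in 4 and lower in 7 of 11 genes (median -0.05). Their median was positive under 1 of the 5 scalings, at 0.001 with the 75th percentile, where that of all probes was 0.047. The decoy receptor gene Tnfrsf11b differed by -0.13 and the tumour necrosis factor receptor gene Tnfrsf1a by -0.30.

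Caspase inhibitors, of which 7 of 14 listed genes were measured, had the lowest median of the 9 lists, -0.19. That median ranged from -0.33 to -0.13 over the other scalings. Of the 7 genes 2 were higher and 5 lower, beside 45.1% of all genes higher. A mean level of at least 1.5 times the median was reached by 4 of them, and 35.5% of all probes at such a level were higher. Among the upper 25% of probes the inhibitor median was -0.29, and that of caspase substrates and DNA fragmentation genes was lower, at -0.33. Birc2, which encodes the ubiquitin ligase cIAP1, stood at 6.41 and 4.94 times the median (-0.38), and Aven, whose product binds Apaf-1, at 4.30 and 4.18 times (-0.04, positive under 4 of the 5 scalings). Of the other members, Cflar, the neighbour of Casp8, stood at 4.47 and 3.66 times (-0.29), and Nol3, which encodes an inhibitor with a recruitment domain, was higher at 24 h, at 1.35 and 1.68 times (0.31). Cflar and Nol3 were picked after their values were seen. Antagonists of the inhibitors and mitochondrial death factors were higher in 1 and lower in 3 of 4 genes (median -0.09), with Siva1 at -0.08, positive under 3 of the 5 scalings, and the mitochondrial flavoprotein gene Aifm1 at -0.14.

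Caspase substrates and DNA fragmentation genes were higher in 5 and lower in 8 of 13 genes (median -0.05). Their median was positive under 1 of the 5 scalings, at 0.004 with the 75th percentile, where that of all probes was 0.047. The actin-severing substrate gene Gsn differed by -0.33 and Parp1, the repair enzyme cut by executioners, by 0.12. Calpains, calcium-activated proteases that can process caspase-12 in mouse cells, were higher in 6 and lower in 3 of 9 genes together with their inhibitor calpastatin (median 0.07). Capn2 differed by 0.17 and the small subunit gene Capns1 by 0.29.

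**Figure D4:**
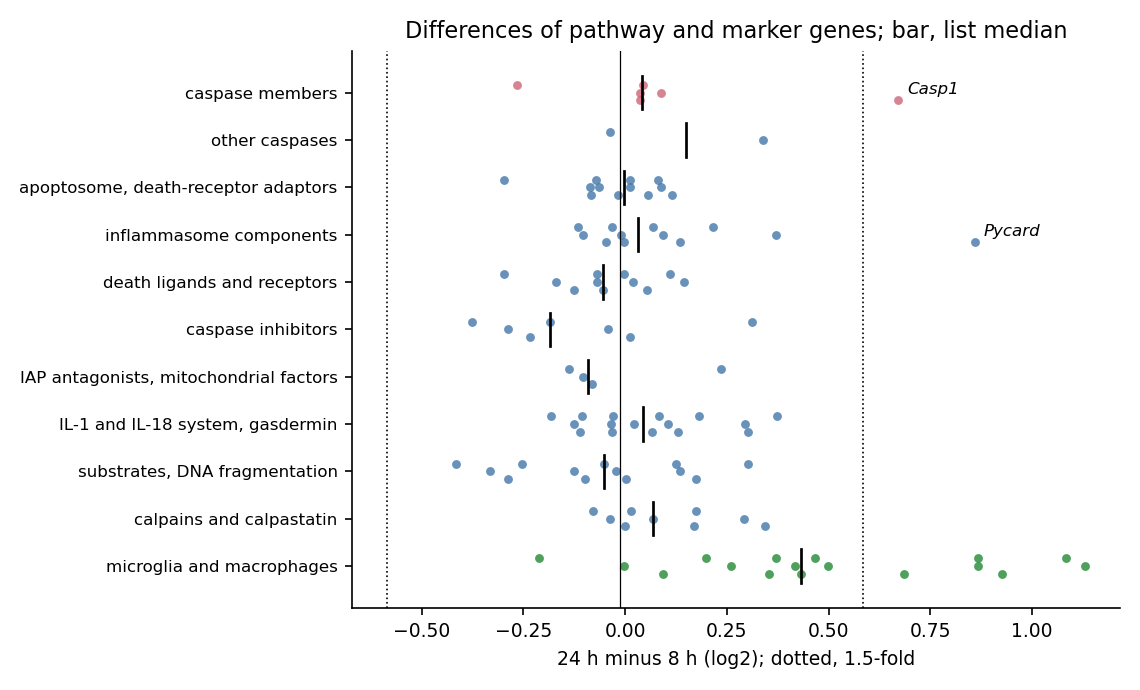
Log2 difference of the 24 h and 8 h profiles for each measured gene of the caspase members (red), the 9 pathway lists (blue) and the microglia and macrophage markers (green), with black bars at the list medians and dotted lines at 1.5-fold. Casp1 (0.67) and Pycard (0.86) are the caspase-related genes right of the upper dotted line, and the marker list has a median of 0.43. Other marker lists, among them the striatal list with a median of 0.54, are not drawn.

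Most microglia and macrophage markers were higher at 24 h, as were Casp1, Pycard and most striatal markers. Most neutrophil markers were not, but most of them stood not far above the floor of the table. A mean level of at least 1.5 times the median was reached by 2 of 11 neutrophil markers and by 13 of 17 microglia and macrophage markers. The lists are therefore not equally informative. Of 17 measured markers of microglia and macrophages 15 were higher in the 24 h profile, 6 past 1.5-fold, against 45.1% and 0.907% of all genes, and their summed level was 133 at 8 h and 205 at 24 h, a ratio of 1.55. Among them, Aif1 differed by 1.08 and Tyrobp by 0.69, whereas Cx3cr1 stood at 1.04 and 1.03 times the median and Trem2 differed by -0.21. The lowest level of a marker of this list was 0.912 (Ptprc at 8 h), and the lowest of any probe at 8 h was 0.624. Neutrophil markers were higher in 3 of 11 and summed to 15.3 and 12.1, with S100a8 at 5.05 and 2.46 times the median, Mpo at 0.910 and 0.980 and Elane at 0.764 and 0.773, near the floor. The part of these cell types in the Casp1 difference was not tested, and in bulk tissue more cells of a type and more RNA per cell cannot be told apart.

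The tissue markers also differed between the profiles. Cortical projection neuron markers were lower in 5 of 6 measured genes (summed level 31.8 and 25.8, Slc17a7 at 10.6 and 8.39 times the median), neuron markers in 11 of 14 (638 and 588) and oligodendrocyte markers in 7 of 9 (430.0 and 331). Of the oligodendrocyte markers 2 passed 1.5-fold downwards. Striatal markers were higher in 6 of 7 (83.3 and 120.0). Choroid plexus markers were higher in 4 of 6 (68.4 and 91.0), 2 past 1.5-fold, with Ttr at 5.10 and 30.1 times the median and Sostdc1 at 0.985 and 2.06 times. Most of that sum was Enpp2, at 59.8 and 56.0 times. Astrocyte markers were higher in 3 of 8 (569.7 and 651), with Gfap at a difference of 0.96 and Gjb6 at -0.66, endothelial and pericyte markers in 7 of 8 (45.9 and 48.8) and lymphocyte markers in 5 of 8 (7.14 and 7.31). These counts stand beside 45.1% of all genes higher at 24 h, 0.907% past 1.5-fold upwards and 0.682% downwards. Of the probes with a mean level of at least 1.5 times the median, 35.5% were higher and 1.32% passed 1.5-fold downwards. Such a level was reached by 13 of 14 neuron markers, 5 of 6 cortical projection neuron markers and 8 of 9 oligodendrocyte markers. Most genes of those lists being lower thus has the same direction as most bright probes, and the part of that lean was not tested. Most cortical projection neuron markers and the measured striatal markers stood above the median in both profiles, and their presence above background was not tested. Of the choroid plexus markers, Ttr and Enpp2 stood above the median at 8 h. Kl (0.853), Folr1 (0.794), Sostdc1 (0.985) and Kcnj13 (0.942) stood under it. The part of the tissue markers in the differences of Casp1, Pycard, Casp9, Birc2 and Cflar was not tested.

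The genes nearest to Casp1 in the plane of both log2 levels, over 2 profiles, were Lap3 (distance 0.05 log2), Pth1r (0.07), Hmgb2 (0.10), Sart1 (0.13) and Ifitm1 (0.14). With a pair of profiles this likeness means equal levels and an equal difference, and no more. Lap3, an aminopeptidase gene, stood at 2.24 and 3.41 times the median and Ifitm1, an interferon-induced membrane protein gene, at 2.41 and 3.68 times.

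**Figure D5:**
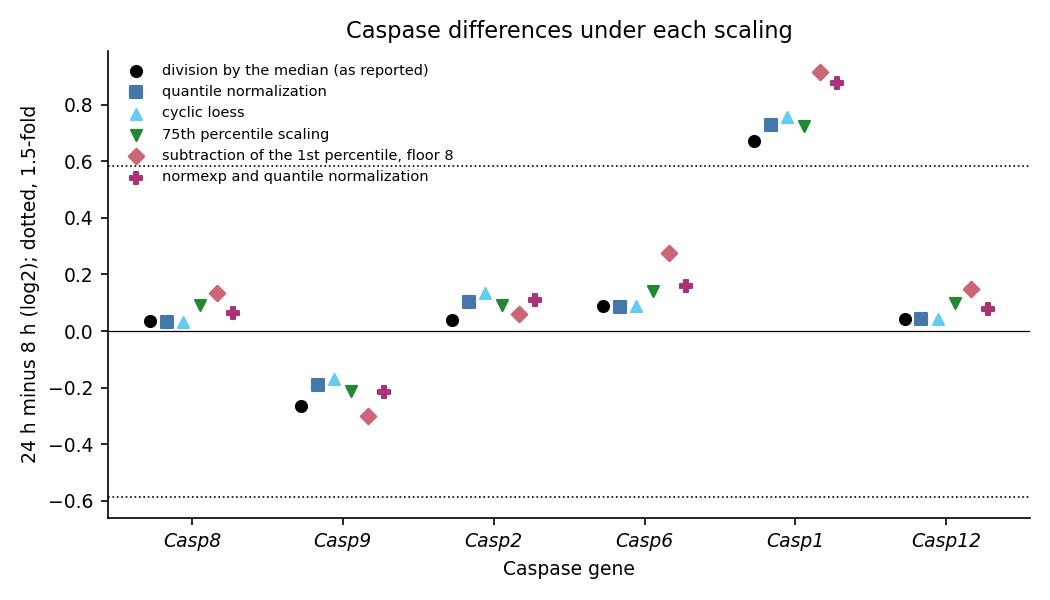
Log2 difference of the 24 h and 8 h profiles for each caspase probe as reported (black circles) and under 5 other scalings or background corrections, with dotted lines at 1.5-fold. Casp1 lies above 1.5-fold in all 6 settings (0.67 to 0.92), Casp9 lies below 0 in all 6 (-0.30 to -0.17), and the other 4 genes lie above 0 and under 1.5-fold.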

How the data were processed

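RNA of 24 arrays in 6 groups was measured on Illumina beadchips. The authors deposited linear intensities for 22523 probes, 1 column per array. Their background correction, scaling and normalization are not given in the sources used here. A further 24 columns of non-normalized values match no sample by name and were not used. Symbols came from the platform annotation (13793 probes with 1 symbol, 8730 with none). Each column was divided by its median, the log2 values of a time point were averaged to 1 profile, and the difference was 24 h minus 8 h (pandas 2.3.3, R 4.3.3, limma 3.58.1 for the alternatives). For genes with several probes the brightest was taken. The calculation was checked on simulated columns, built without noise as 1 profile per time point times 1 factor per array. That check covers the arithmetic only and shows nothing about the precision of the differences. The members and lists were chosen with earlier results of these data known. Named by rule were every member, the other caspases, pathway list genes past 1.5-fold, otherwise the 2 brightest of a list, and the 5 genes nearest to the member with the largest difference. Other genes, among them all named cell type markers, were picked after their values were seen. Alternatives were other scalings, background corrections, filters on dim probes, single slides and leaving out replicates. Upstream windows were RefSeq sequences of GRCr8. The intensities carry no read depth, and the number of profiles, 1 per time point, limits the precision. No model could be fitted to groups whose columns differ by 1 factor.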

Additional observations from a re-analysis of the deposited data

Results flagged for a closer look

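The Casp1 intensity of treatment replicate 2 at 24 h, on slide 1, stood apart from the other arrays of its group. It read 355 against 305 to 312 in the other 3 arrays, and its gap to the nearest was 0.866 of the group's range, above Dixon's critical value for 4 samples. Chance gives such a gap in about 1 of 20 groups, and 6 groups were examined. Because the columns of a time point differ by 1 factor, the same gap holds for each probe of that array and was absent from the scaled levels. Its cause was not tested.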

How the results depend on the processing

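The differences have no replicate error against which to weigh a move. Leaving out replicate 1, 2, 3 or 4, or using 1 slide, moved no value by more than 1e-06, which the identical scaled columns fix in advance and which shows nothing about stability. The Casp1 difference (0.67) was 0.73 after quantile normalization, 0.76 after cyclic loess, 0.73 with the 75th percentile, 0.92 with the 1st percentile subtracted (floor 8), and 0.88 with normexp and quantile normalization. In that order the median difference of the 6 members (0.040) was 0.063, 0.065, 0.095, 0.14 and 0.094. The median of the pathway genes (-0.0060) was 0.0038, 0.0091, 0.049, -0.023 and 0.0072. The median of all probes (-0.0079) was -0.0040, 0.0015, 0.047, -0.10 and -0.0078. The median level of the members (1.90 times the array median) was 1.91 after quantile normalization, 1.90 after cyclic loess, 3.93 after subtraction and 2.69 with normexp. Among the upper 50% of probes the median difference was 0.062, the median level 3.44 and the pathway median -0.017. Among the upper 25%, which leaves out Casp1 and Pycard, they were -0.11, 5.39 and -0.083, with 0 members and 0 pathway genes past 1.5-fold. Past 2-fold there were 0 members. After subtraction 10 pathway genes passed 1.5-fold in place of 1, beside 3.78% of all probes upwards and 3.42% downwards. With the mean of all probes of a gene the pathway median was -0.0015. Levels, numbers of pathway genes and the median of all probes were added after the data were seen. No paired analysis was possible because the columns of a time point are 1 profile and the results come from no test. The intensities carry no detection call, which limits what can be said of Casp6, Casp8 and Casp12.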
